A study of Mus musculus with 65 samples.

Results

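HORMAD1 is a HORMA-domain protein of the meiotic chromosome axis, the protein core to which chromatin loops are anchored while homologous chromosomes pair and recombine. Described here are the regions of chromatin that anti-HORMAD1 recovered from testes without MEI4, set against those recovered from wild-type testes. The members are all peaks of the 2 HORMAD1 lists, 1715 in the wild type and 5275 in Mei4KO, which together are 6990 of the 97260 regions in the 24 lists of the series. A peak was called shared when it overlapped a peak of the other list by 1 bp or more, and otherwise wild-type only or knockout only. Positions alone made these classes. They were then described by the DMC1 value, the CTCF score, the width and the lists of the other proteins at the same places.

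Both groups are C57BL/6JCrl males, wild type or carrying Mei4tm1Bdm (Mei4KO). From 1.5 days after birth the pups were fed WIN 18,466, a blocker of retinoic acid production, for 7 to 10 days. They then received 1 injection of retinoic acid, which lets the waiting spermatogonia enter meiosis together, and whole testes were collected 8 days later. The labels state that 80 to 95% of the cells were then at leptotene or zygotene, and the other cells of the testis were not removed. Chromatin was fixed for 15 minutes in 4% formaldehyde. Each group has 2 samples and 1 peak list, and whether the samples were pooled is not stated, so no difference between genotypes has a replicate check. The authors subtracted the signal of the Hormad1tm1.2Atot knockout (Hormad1KO) from all HORMAD1 data, a step the wild-type and Mei4KO lists share. Lists used for comparison came from mice with the alleles B6;129P2-Prdm9tm1Ymat/J (Prdm9KO), Spo11tm1Mjn (Spo11KO) and Iho1tm1.2Atot (Iho1KO), synchronised in the same way. The number of reads behind a list is unknown, and the intervals given cover counting error only, with peaks taken as independent.

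In mouse spermatocytes PRDM9 binds DNA and marks hotspots, SPO11 cuts there, and MEI4, IHO1 and REC114 are partners that SPO11 needs for cutting. IHO1 binds HORMAD1, and this ties the cutting machinery to the axis, whose filaments are made of SYCP3 and cohesin. DMC1 coats the single-stranded DNA at the breaks, and DMC1 signal in the wild type is taken here as an indirect measure of how much a hotspot is used. Spermatocytes without MEI4 make no meiotic breaks, or very few, and arrest. CTCF is a zinc-finger protein that halts cohesin on DNA and sets the bases of chromatin loops in many cell types.

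Most of what HORMAD1 occupied without MEI4 was CTCF sites, and the sequence at such places is shown by 5 promoters at which a HORMAD1 peak and a CTCF peak overlap. They were chosen after the lists had been examined, as named genes with the highest CTCF score among promoters without a hotspot that hold a simplified core of the CTCF motif before the gene start and inside both peaks. Promoters are those of RefSeq for GRCm38.p6, the assembly known as mm10, from 250 bases before to 50 after the gene start, and only bases before the start are printed. The core searched is CCA, then AG and then GGC, with 2 bases of any kind between them. Each sequence reads 5′ to 3′ on the gene's strand, with the match on either strand in capitals. The promoters of Pdzd9 (chr7:120670277-120670408, minus strand) and Vmn2r29 (chr7:7278446-7278539, minus strand) lay under shared HORMAD1 peaks. Those of Cpne8 (chr15:90679535-90679638, minus strand), Vps18 (chr2:119288603-119288734, plus strand) and Slc25a38 (chr9:120110232-120110363, plus strand) lay under knockout-only peaks.
Pdzd9: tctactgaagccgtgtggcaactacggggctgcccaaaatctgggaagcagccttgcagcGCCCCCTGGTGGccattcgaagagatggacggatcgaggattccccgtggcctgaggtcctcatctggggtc
Vmn2r29: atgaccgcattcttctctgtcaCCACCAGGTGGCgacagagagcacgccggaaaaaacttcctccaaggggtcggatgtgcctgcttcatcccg
Cpne8: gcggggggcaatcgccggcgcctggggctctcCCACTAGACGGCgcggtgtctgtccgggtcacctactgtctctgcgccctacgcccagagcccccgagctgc
Vps18: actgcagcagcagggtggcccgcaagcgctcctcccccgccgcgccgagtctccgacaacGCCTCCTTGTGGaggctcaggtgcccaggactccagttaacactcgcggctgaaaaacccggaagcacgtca
Slc25a38: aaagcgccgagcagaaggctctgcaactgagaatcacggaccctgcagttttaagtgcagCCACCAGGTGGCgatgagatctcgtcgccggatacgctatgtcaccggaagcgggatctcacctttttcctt

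The CTCF scores at these promoters were 4.07 at Pdzd9 and 4.05 at Vmn2r29, and 6.37, 5.85 and 5.32 at Cpne8, Vps18 and Slc25a38. The match lay between 21 bp (Cpne8) and 488 bp (Slc25a38) from the centre of the CTCF peak. At Pdzd9 and Vmn2r29 the HORMAD1 lists of Iho1KO, Spo11KO and Prdm9KO also held a peak, and so did the Mei4KO list of IHO1. At Cpne8, which encodes a copine, Vps18, a subunit of the tethering complexes of late endosomes, and Slc25a38, the glycine carrier of mitochondria, none of these 4 lists held one. Vmn2r29 is a vomeronasal receptor gene of a family with near-identical copies, so its reads may be divided among them. The pattern occurred in 2.43% of all 32851 promoters (797) and in 5.83% (Wilson 95% interval 5.17 to 6.57) of the 4270 at CTCF peaks. It occurred in 11.1% (8.12 to 15.1) of the 314 promoters at both a knockout-only HORMAD1 peak and a CTCF peak. Of the 44 promoters at shared peaks and CTCF it occurred in 5, and of the 36 at wild-type-only peaks and CTCF in 1. A match describes letters in a window and is not a mapped binding site.

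Of the 1715 wild-type HORMAD1 peaks, 576 were found in Mei4KO (33.6%, 31.4 to 35.9) and 1139 were not. Of the 5275 Mei4KO peaks, 574 were found in the wild type (10.9%, 10.1 to 11.8) and 4701 were not. With 1715 Mei4KO peaks, the widest or the first in deposited order, the wild-type share found was 17.6 or 28.9% and the Mei4KO share found 17.4 or 28.7%. With the wider 50% of each list the shares were 21.6 and 7.02%. The shares over the full lists are also the background, 33.6 and 10.9 percent, against which each kind of site is read below. The 2 classes held by 1 list were seldom near misses. Of the wild-type-only peaks, 13 of 1139 (1.14%) came within 1 kb of a Mei4KO peak, and the median distance to the nearest one was 136993 bp. Of the knockout-only peaks, 27 of 4701 lay within 1 kb of a wild-type peak, with a median distance of 368843 bp.

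The classes lay over different kinds of site. Among wild-type-only peaks, 58.2% (55.3 to 61.0) were at DMC1 hotspots, against 7.81% (5.89 to 10.3) of shared wild-type peaks, a difference of 50.4 percentage points (Newcombe 95% interval 46.6 to 53.8). At CTCF peaks the order was the opposite, with 25.9% of wild-type-only and 69.97% of shared wild-type peaks, a difference of -44.1 points (-48.4 to -39.4). With the widest Mei4KO peaks, as many as the wild-type list holds, it was -28.6 points. Among peaks without a hotspot the difference at CTCF was -20.9 points (-26.7 to -14.9). Differences are called where the interval excludes 0, and all of these were. Of the wild-type-only peaks, 611 held a hotspot and no CTCF peak, 52 held both, 243 held a CTCF peak alone and 233 held neither. The corresponding counts for the 576 shared wild-type peaks were 24, 21, 382 and 149.

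**Figure D1:**
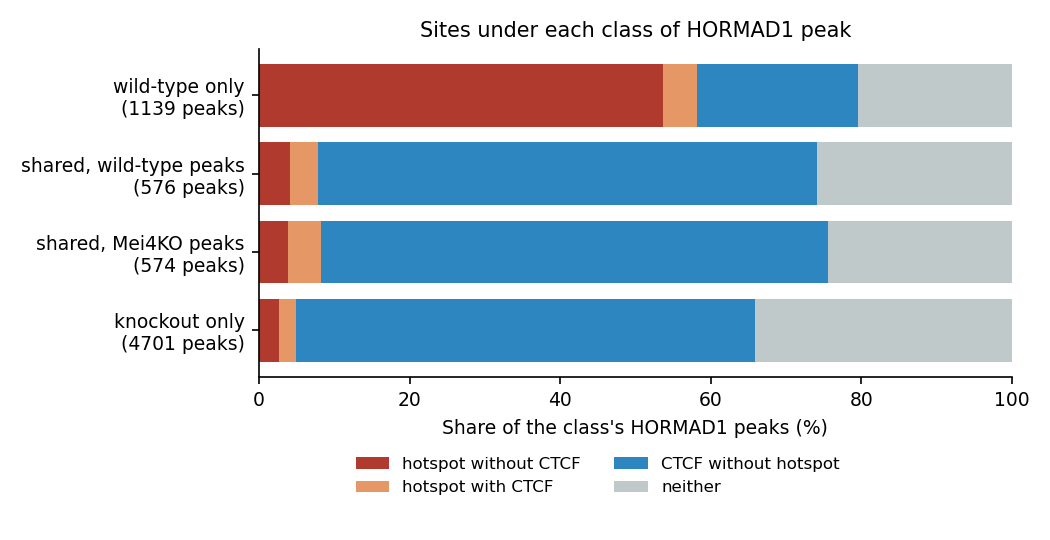
Kinds of site under each class of HORMAD1 peak, as a share of the class in percent; hotspots are wild-type DMC1 hotspots and CTCF peaks are of the wild type. Hotspots make up most of the wild-type-only class, 611 and 52 of its 1139 peaks, and CTCF peaks most of the other 3 classes.

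The knockout-only peaks were closer to the shared peaks in kind than to the wild-type-only ones. CTCF peaks without a hotspot lay under 2869 of 4701 (61.0%), a further 102 held both kinds, 127 held a hotspot alone and 1603 (34.1%) held neither. At DMC1 hotspots were 4.87% of knockout-only against 8.19% of shared Mei4KO peaks, a difference of -3.32 points (-5.91 to -1.24). At CTCF peaks were 63.2% against 71.8%, a difference of -8.58 points (-12.4 to -4.52). Both intervals took in 0 when the Mei4KO list was limited to its first peaks in deposited order, as many as the wild-type list holds (-0.94 points for hotspots, -1.35 for CTCF). The interval for hotspots also took in 0 with peaks cut to a central 1 kb (-1.22 points), and that for CTCF did so with the wider 50% of each list (-3.04 points). Conversely, the hotspot difference was -10.3 points with the wider 50%, and the CTCF difference -13.6 points with the central 1 kb and -13.3 with the 50% of CTCF peaks of higher score.

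Seen from the hotspots, HORMAD1 of Mei4KO was at few of the most used ones. Of all 13808 hotspots, 609 (4.41 percent) held HORMAD1 in the wild type and not in Mei4KO, 234 (1.69 percent) the reverse, and 40 held it in both lists. Among the 10% with the highest DMC1 value (1263 or more), 565 of 1381 held HORMAD1 in the wild type (40.9%) and 20 in Mei4KO (1.45%). Of the 100 hotspots with the highest DMC1 value, 83 held HORMAD1 in the wild type and 2 in Mei4KO. In the other 90% of hotspots the order turned round: 84 of 12427 (0.676%) held HORMAD1 in the wild type and 254 (2.04%) in Mei4KO. List length was not matched for these counts, and the Mei4KO list is longer, with 5275 peaks over 18.2 Mb against 1715 over 6.03 Mb. The Mei4KO share lay between 1.38 and 2.61% across the 10 classes of DMC1 value and was no higher at the most used hotspots than at the least used, where it was 2.46%. Among the 25% of hotspots with the highest value, 575 held HORMAD1 in the wild-type list alone and 38 in the Mei4KO list alone, so that the wild type had 93.8% (91.6 to 95.5) of those that differed.

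**Figure D2:**
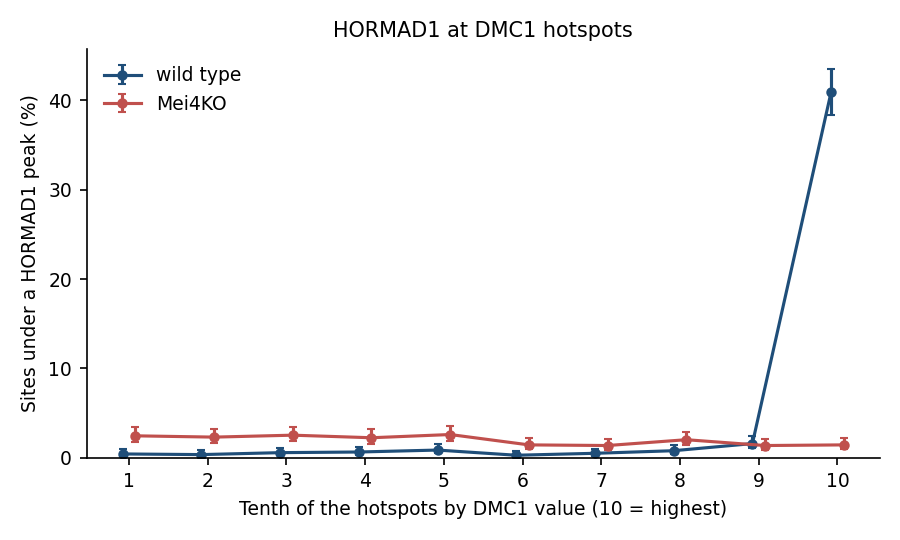
Share of wild-type DMC1 hotspots under a HORMAD1 peak, in percent, by class of DMC1 value (10 equal classes, 10 the highest), in the wild type (blue) and Mei4KO (red), with Wilson 95% intervals. The wild-type share reaches 40.9% in the highest class, where the Mei4KO share is 1.45%. Across the classes the Mei4KO share lies between 1.38 and 2.61%.

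The DMC1 value of the hotspots under each class followed from this. The highest value under a peak had a median of 3409.5 (3238 to 3577.5) in the 663 wild-type-only peaks at hotspots, 393 (126 to 908) in the 45 shared wild-type peaks and 83.5 (73.0 to 102.5) in the 229 knockout-only peaks. Over all hotspots the median DMC1 value was 129. Hotspots under knockout-only peaks thus had lower DMC1 values than hotspots at large, and those under wild-type-only peaks higher ones. The centre of the knockout-only peaks at hotspots lay a median of 521.5 bp from the hotspot's centre, against 535.5 bp for wild-type-only peaks at hotspots. The former had a median width of 2573 bp and the latter of 4727 bp, so the distances do not compare peaks of equal width.

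The 3 wild-type-only peaks over the hotspots of highest DMC1 value lay inside genes. In Ankfn1, the peak at chr11:89607538-89617339 (mm10) was 9802 bp wide over a hotspot of DMC1 value 20822.5. In Dennd1a, which encodes an activator of the endosomal GTPase RAB35, the peak at chr2:38136859-38141393 covered a hotspot of 20513.5. In Erbb4, a receptor tyrosine kinase for neuregulins, the peak at chr1:68485638-68492075 covered one of 18961. Peaks of MEI4, IHO1 and SYCP3 of the wild type lay at all 3 places, and peaks of IHO1 and SYCP3 of Mei4KO at none. Spo11KO kept HORMAD1 at Dennd1a and Erbb4, Iho1KO at Ankfn1 and Dennd1a, and Prdm9KO at none of the 3.

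Hotspots with HORMAD1 in both lists were few, and the 3 with the highest DMC1 value were 12.6 kb from Aggf1, a gene for an angiogenic factor, on chromosome 13 (11947.5), at Glod5 on chromosome X (6540.5) and at Dad1, a subunit of the oligosaccharyltransferase, on chromosome 14 (3357). At each of them the Mei4KO peak was narrower than the wild-type peak. The widths were 3623 bp in Mei4KO against 7809 bp in the wild type near Aggf1, 4697 against 7205 bp at Glod5 and 3636 against 9671 bp at Dad1. None of the 3 Mei4KO peaks stood near the start of its list, with deposited ranks of 2823, 4053 and 2746 of 5275.

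Seen from CTCF, the Mei4KO list took in many more sites. Of 32676 CTCF peaks, 3019 (9.24 percent) held HORMAD1 in Mei4KO and not in the wild type, 295 (0.903 percent) the reverse, and 404 in both. Mei4KO had 91.1% (90.1 to 92.0) of the CTCF peaks that differed. This share was 74.1% with the first 1715 Mei4KO peaks in deposited order and 63.4% with the 1715 widest, and was thus lower with lists of matched length. The share of CTCF peaks under HORMAD1 was higher at higher CTCF scores in both genotypes, though not at each step among the lower ones, going from 0.367% in the lowest 10% of scores to 10.99% in the highest in the wild type, and from 1.68 to 36.9% in Mei4KO. Of the 100 CTCF peaks with the highest score, 33 held HORMAD1 in the wild type and 54 in Mei4KO, with 24 in both.

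**Figure D3:**
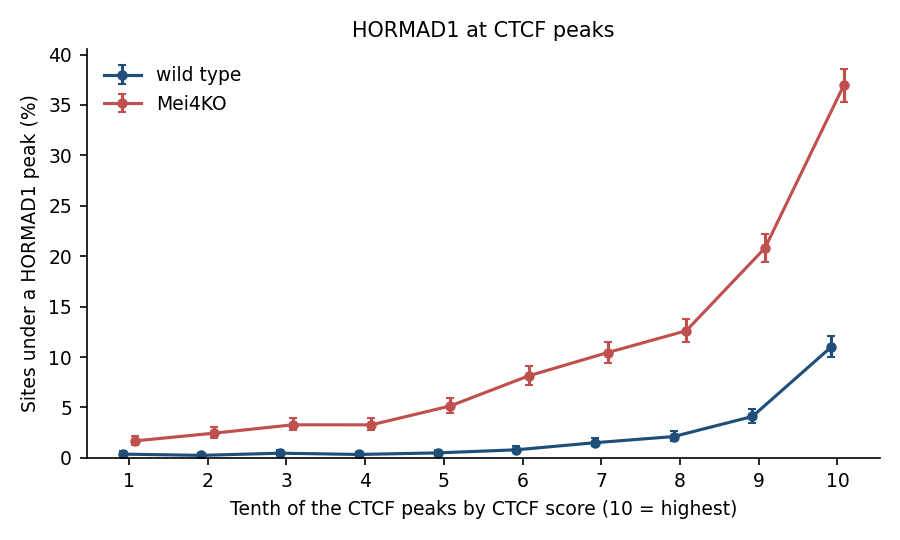
Share of CTCF peaks under a HORMAD1 peak, in percent, by class of CTCF score (10 equal classes, 10 the highest), in the wild type (blue) and Mei4KO (red), with Wilson 95% intervals. Both are highest at the highest scores, at 10.99% in the wild type and 36.9% in Mei4KO, and the Mei4KO share is the higher in each class.

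CTCF sites under knockout-only peaks had lower scores than those under shared peaks. The median of the best score under a peak was 3.28 (3.22 to 3.35) in knockout-only peaks and 4.11 (3.97 to 4.304) in shared Mei4KO peaks, against 1.92 over all CTCF peaks. Of knockout-only peaks at CTCF, 61.0% covered a CTCF peak of the upper 25% of scores (2.89 or more), against 80.3% of shared Mei4KO peaks, a difference of -19.4 points (-23.3 to -14.9). This difference was called under all alternatives tried, and it was nearest to 0, at -7.54 points, with the first 1715 peaks in deposited order, and -10.7 points with the wider 50% of each list. On the same measure 69.5% of wild-type-only peaks at CTCF stood against 81.6% of shared wild-type peaks, a difference of -12.1 points (-18.6 to -5.72) that was called. Among those without a hotspot the shares were 79.0 and 82.5%, and the interval of the difference, -3.45 points (-10.0 to 2.77), included 0. The centre of a knockout-only peak lay a median of 347.5 bp from the nearest CTCF centre under it, and that of a shared Mei4KO peak 340.25 bp.

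Among shared Mei4KO peaks without a hotspot, the 3 highest CTCF scores were on chromosomes 9, X and 13. The peak at chr9:124256340-124257859, 10 kb from the predicted gene Gm39469, lies in the last 1 Mb of its chromosome and had a CTCF score of 31.4 and rank 3 in the deposited order. The others, at a pseudogene on chromosome X (chrX:75672424-75675796) and 0.5 kb from a pseudogene on chromosome 13 (chr13:13888769-13890278), had scores of 13.5 and 13.05. At all 3 the HORMAD1 lists of the other 3 knockouts and the Mei4KO list of IHO1 also held a peak. Among knockout-only peaks the highest scores were 12.4 at a long noncoding RNA on chromosome 6 (chr6:47650081-47651806), 11.5 at Ap5s1, a subunit of the adaptor complex AP-5 (chr2:131209197-131211502), and 9.80 at 18.6 kb from Mki67, the gene of the proliferation marker Ki-67 (chr7:135735021-135737678). Mei4KO IHO1 was found at the peak near Mki67 and not at the other 2.

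HORMAD1 peaks of Mei4KO without either kind of site made up 1603 of the knockout-only class, and the 3 widest of them overlapped protein-coding genes. The widest was 27162 bp at Cyb561, which encodes a cytochrome of secretory vesicles (chr11:105929477-105956638). Next came 23341 bp over Rara, Gjd3 and Top2a on the same chromosome (chr11:98969901-98993241). Rara encodes a retinoic acid receptor and Top2a a topoisomerase. The third, of 22288 bp, overlapped Eml4 and Cox7a2l (chr17:83479703-83501990). None of the 3 was in another HORMAD1 list. Mei4KO IHO1 was found at the peaks at Cyb561 and over Rara, Gjd3 and Top2a, and Mei4KO SYCP3 at the latter alone. The peak over Eml4 and Cox7a2l had neither. Promoters lay under 17.2% of knockout-only peaks of this kind and under 27.9% of shared Mei4KO peaks of this kind, a difference of -10.7 points (-18.8 to -3.67).

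Shared HORMAD1 peaks were wider in Mei4KO away from hotspots, with CTCF or without it, and not detectably so at hotspots. Over 566 shared places where 1 wild-type peak met 1 Mei4KO peak, the median width was 2075 bp in the wild type and 3512 bp in Mei4KO. The Mei4KO peak was the wider in 486 (85.9%, 82.8 to 88.5). At the 377 of these with CTCF and no hotspot it was wider in 338 (89.7%, 86.2 to 92.3), with a median ratio of 1.55. At the 146 with neither kind of site it was wider in 128 (87.7%, 81.4 to 92.1), with a median ratio of 1.66. At the 43 with a hotspot it was wider in 20 (46.5%, 32.5 to 61.1), with a median ratio of 0.949. The median over whole classes was 3150 bp in wild-type-only, 2078.5 bp in shared wild-type, 3512 bp in shared Mei4KO and 2468 bp in knockout-only peaks. Peaks wider than the median wild-type HORMAD1 peak were less frequent among knockout-only than among shared Mei4KO peaks, by a difference of -23.6 points (-27.5 to -19.4). The difference was -16.03 points with peaks trimmed to a central 1 kb for the overlap and -13.8 with the first 1715 Mei4KO peaks. Both were called. With the wider 50% of each list it was -3.55 and called, but that setting left little room for a difference. The Mei4KO peaks kept there begin near their list's median of 2580 bp, close to the wild-type median of 2641 bp. An overlap rule of 1 bp is met more easily by wider peaks.

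Other proteins of the axis and the cutting machinery separated the classes further. Peaks of IHO1 in Mei4KO lay at 52.4% (48.4 to 56.5) of shared Mei4KO HORMAD1 peaks and at 5.15% (4.55 to 5.82) of knockout-only ones, a difference of -47.3 points (-51.4 to -43.1). For SYCP3 in Mei4KO the shares were 27.7% (24.2 to 31.5) and 3.15% (2.69 to 3.69), a difference of -24.6 points (-28.4 to -21.0). Each was called under all alternatives tried, and with the first 1715 peaks in deposited order the differences were -42.3 and -23.1 points. The knockout-only HORMAD1 peaks were thus mostly without a peak of IHO1 or SYCP3 from the same knockout. List length limits this reading. The IHO1 and SYCP3 lists of Mei4KO hold 1036 and 1125 peaks, too few to cover most of the 4701 knockout-only peaks. Either list is longer than the 574 shared Mei4KO peaks.

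The IHO1 and SYCP3 lists of Mei4KO met the wild-type HORMAD1 list as often as the Mei4KO one, although that list is shorter. Of 1036 Mei4KO IHO1 peaks, 553 lay at Mei4KO HORMAD1 and 552 at wild-type HORMAD1. They divided into 303 at both lists, 250 at the Mei4KO list alone, 249 at the wild-type list alone and 234 at neither. Of 1125 Mei4KO SYCP3 peaks, 313 lay at Mei4KO and 310 at wild-type HORMAD1, and 661 (58.8%) at neither. Wild-type IHO1 divided otherwise, with 981 of 1589 peaks at wild-type HORMAD1 (61.7%) and 443 at Mei4KO HORMAD1 (27.9%).

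Wild-type HORMAD1 peaks at CTCF that were absent from the Mei4KO list did carry Mei4KO IHO1. Among peaks at CTCF without a hotspot, 58.8% of the 243 wild-type-only and 55.8% of the 382 shared wild-type peaks had an IHO1 peak of Mei4KO, a difference of 3.09 points (-4.87 to 10.9), which includes 0. For Mei4KO SYCP3 the shares were 28.8 and 26.4%, a difference of 2.37 points (-4.70 to 9.67), likewise not called. At hotspots the wild-type-only peaks had neither partner as a rule, with IHO1 of Mei4KO at 2.41% and SYCP3 of Mei4KO at 3.17% of 663 peaks.

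MEI4 of the wild type was more frequent at wild-type-only than at shared peaks over all kinds of site together, and not at CTCF peaks without a hotspot. Wild-type MEI4 lay at 40.4% (37.6 to 43.3) of wild-type-only and 5.21% (3.67 to 7.34) of shared wild-type peaks, a difference of 35.2 points (31.7 to 38.4). Within the peaks at hotspots the shares were 63.2 and 35.6%, a difference of 27.6 points (12.6 to 40.5). Within the peaks at neither kind of site they were 16.3 and 3.36%, a difference of 12.95 points (6.98 to 18.6). At CTCF without a hotspot MEI4 was rare in both, 1.23 and 2.36%, and the difference of -1.12 points (-3.34 to 1.46) was of the opposite sign and not called. At hotspots without CTCF the shares were 63.2 and 45.8%, and the difference of 17.3 points (-2.14 to 35.7) was not called either. Of the 1566 MEI4 peaks, 453 lay at wild-type HORMAD1 and 56 at Mei4KO HORMAD1. Wild-type SYCP3 lay at 70.5% of wild-type-only and 37.7% of shared wild-type peaks. The shares were 87.2 and 54.2% at hotspots without CTCF and 56.2 and 28.9% at neither kind of site, both differences called. At CTCF without a hotspot they were 42.0 and 39.5%, and the difference of 2.45 points (-5.38 to 10.3) was not called.

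**Figure D4:**
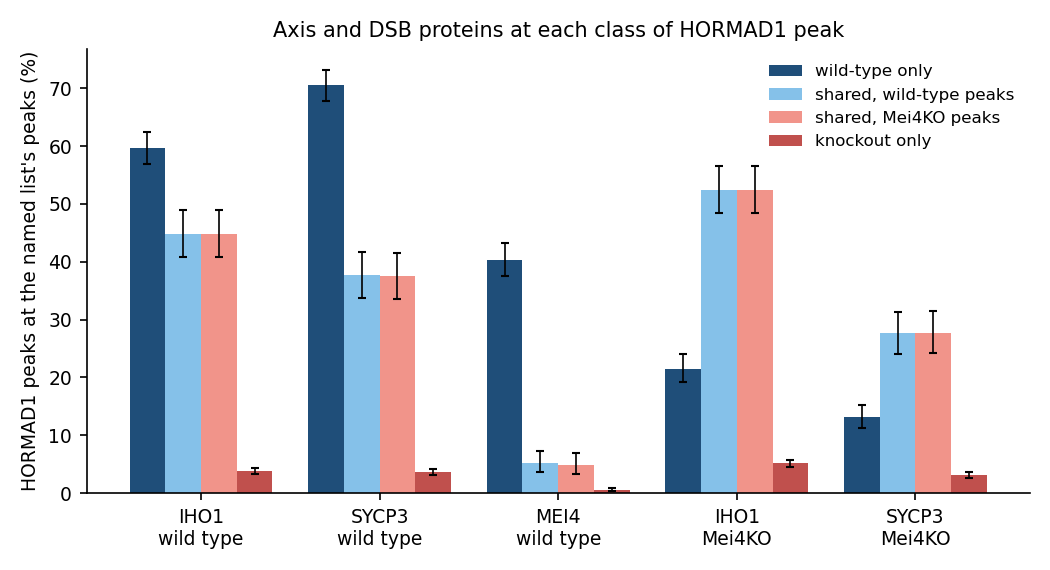
Share of each class of HORMAD1 peak that overlaps a peak of IHO1, SYCP3 or MEI4 in the wild type, or of IHO1 or SYCP3 in Mei4KO, in percent, with Wilson 95% intervals. The knockout-only bars stay at or under 5.15% for all 5 lists, and the shared peaks are highest for Mei4KO IHO1, at 52.4%.

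The absence from hotspots was set beside that in the other knockouts by asking which wild-type peaks each HORMAD1 list held. Of the 708 wild-type peaks at hotspots, 6.36% (4.78 to 8.40) were found in Mei4KO, 13.98% in Iho1KO, 5.08% in Prdm9KO and 49.9% in Spo11KO. The Mei4KO share was below that of Iho1KO by a difference of -7.63 points (-10.8 to -4.51) and below that of Spo11KO by one of -43.5 points (-47.5 to -39.3). Against Prdm9KO the difference of 1.27 points (-1.18 to 3.74) was not called. It turned to -1.69 points with the widest 1715 Mei4KO peaks, -1.84 with the first 1715 and -0.58 with the wider 50% of the wild-type and Mei4KO lists. The Prdm9KO list was kept whole in these settings, so they do not compare lists cut alike. With the 50% of hotspots of higher DMC1 value the difference was 2.25 points (0.34 to 4.26) and called. The lists differ in length, with 5275 peaks in Mei4KO, 3149 in Iho1KO, 2897 in Spo11KO and 1009 in Prdm9KO, so the longest list found among the fewest of the hotspot peaks.

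At CTCF sites the Mei4KO list also recovered less of the wild type than shorter lists did. Of the 625 wild-type peaks at CTCF without a hotspot, 61.1% (57.2 to 64.9) were found in Mei4KO, 84.96% in Iho1KO, 84.5% in Spo11KO and 64.0% in Prdm9KO. The differences were -23.8 points from Iho1KO (-28.5 to -19.0), -23.4 from Spo11KO (-28.0 to -18.5) and -2.88 from Prdm9KO (-8.22 to 2.48), the last not called. Among the 507 of these peaks over a CTCF peak of the upper 25% of scores, 62.1% (57.8 to 66.2) were found in Mei4KO. Strong CTCF sites were therefore among those absent from the Mei4KO list.

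Merging the 5 HORMAD1 lists gave 7908 regions, of which 4113 held CTCF and no hotspot. The more of the other lists held such a region, the more often the wild type, Prdm9KO, Spo11KO and Iho1KO held it, for example 1.71% in the wild type where 1 other list held it and 68.4% where all the other 4 did. In Iho1KO the corresponding shares were 26.1 and 92.1%. In Mei4KO the share was nearly level, at 61.9% (58.9 to 64.9), 65.8% (62.1 to 69.3), 64.2% (59.0 to 69.0) and 63.1% (57.8 to 68.1) where 1, 2, 3 or 4 other lists held the region. Over all regions the Mei4KO share went from 37.6 to 58.7% between 1 and 4 other lists, and at hotspots from 7.66 to 59.3%. At regions with neither kind of site it was 33.4% with 1 other list. There it was nearly level after that, at 47.6, 48.6 and 46.1% with 2, 3 or 4. These shares are given as a description, since the 5 curves use the same lists. Regions in Mei4KO alone count as held by 1 other list in the other 4 curves, and do not enter the Mei4KO curve. At CTCF without a hotspot, 2163 regions had 1 other list for the wild type and 1008 for Mei4KO. The contrast between level and rising curves is therefore partly set by list length.

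**Figure D5:**
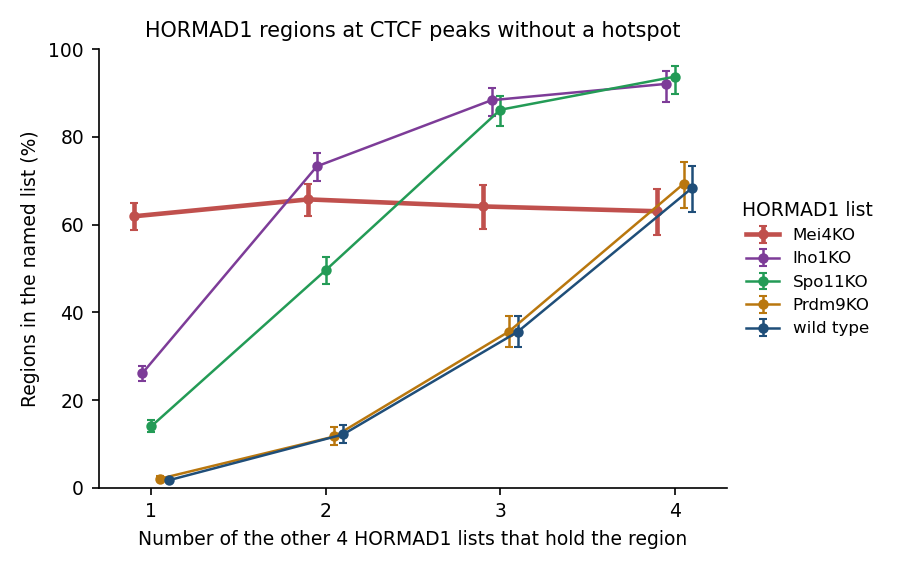
Share of merged HORMAD1 regions at CTCF without a hotspot that are in the named HORMAD1 list, in percent, by the number of the other 4 lists that hold the region, with Wilson 95% intervals. The Mei4KO curve stays between 61.9 and 65.8%, whereas each of the other 4 rises. Part of this contrast is set by list length, since regions in Mei4KO alone enter the other 4 curves and not its own.

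Of the 333 such regions held by all the other 4 lists, 210 were in Mei4KO and 123 were not. The median best CTCF score was 4.68 (4.40 to 4.89) in the 210 and 3.95 (3.68 to 4.25) in the 123. The wild-type peak had a median width of 1818 bp (1684 to 1995) in the 210 and 2129 bp (1906 to 2337) in the 123. Its median rank in the deposited wild-type order was 725 and 676, with intervals that overlapped. Mei4KO IHO1 lay at 64.3% (57.6 to 70.5) of the 210 and 72.4% (63.9 to 79.5) of the 123. The places missing from the Mei4KO HORMAD1 list therefore had IHO1 of the same knockout about as often as those present, within these intervals.

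Knockout-only peaks were in part known from the other knockouts, though less often than shared ones. Of the 4701, 27.3% were in Iho1KO, 18.4% in Spo11KO and 4.51% in Prdm9KO, and they covered 41.3, 30.4 and 20.9% of those lists. The corresponding shares were 33.4, 25.3 and 10.4% of all Mei4KO peaks and 83.3, 81.4 and 59.1% of shared Mei4KO peaks. None of the 3 lists held 3142 of the knockout-only peaks (66.8%), 1 list held 888, 2 lists held 538 and all 3 held 133. The median CTCF score was 3.07 where no other knockout list held the peak and 4.12 where all 3 did, and the share with Mei4KO IHO1 was 1.43 and 34.6%.

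The order in which the Mei4KO peaks were deposited, whose meaning is not stated, went along with sharing, CTCF, width and IHO1, and not with hotspots. In the first 20% of the file 41.5% (38.6 to 44.5) of peaks were shared with the wild type, and in the following parts 7.30, 2.94, 1.90 and 0.758%. Over the same 5 parts the share at CTCF went from 76.6 to 50.7%, the median best CTCF score from 4.04 to 2.82, the median width from 3218 to 2286 bp and the share with Mei4KO IHO1 from 35.5 to 1.33%. The share at hotspots stayed between 4.45 and 6.07%, and the median DMC1 value showed no steady course, at 81.0, 122, 97.5, 69.0 and 101.5. In the wild-type file the shared peaks were spread evenly by comparison, at 25.1, 32.9, 40.8, 36.4 and 32.7% of its 5 parts.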

How the data were processed

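Chromatin immunoprecipitation and sequencing gave, per the labels, peaks of HORMAD1 in 2 wild-type and 2 Mei4KO samples of synchronised testis. The authors deposited 1 list per group, with start and end positions and no strength, on the build mm10. Bowtie2 and MACS2 are named in the submitters' processing notes, and their versions, settings and roles are not given in the sources used here. The signal of each protein's own knockout was subtracted, per the series' design text. The CTCF list has a score per peak deposited by the authors, written with a decimal comma, with 192 of 32676 scores below 0 and no stated scale. The DMC1 list has a signal value per hotspot deposited by the authors, in multiples of 0.5, with no stated unit. Both served only to rank or filter sites within their own list. The read depth of the lists is unknown, and depth and list length cannot be told apart from genotype.

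Overlaps of 1 bp or more were counted with Python 3.11.15, numpy 2.4.6 and pandas 2.3.3. Shares have Wilson and differences of shares Newcombe 95% intervals, and no p-value is given, since a group has a single list. Medians have exact order-statistic 95% intervals. The overlap and interval code was tested on simulated data. The alternatives were another overlap rule, a 1 kb centre window, autosomes, matched or stricter lists, stronger hotspots or CTCF peaks and peaks without hotspots. Matching by deposited order and a gap of 1 kb were added after the data had been examined. The members, lists and comparisons were chosen with earlier results of these data known. Sites named in the text are those of highest DMC1 value or CTCF score, or of greatest width, in a class, 3 each, without chromosome 18. Genes come from a RefSeq table of GRCm38.p6. Motif matches were searched on both strands of each promoter, and 1668 of 1668 overlapping promoter pairs of opposite strands had matching letters.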

Additional observations from a re-analysis of the deposited data

How the results depend on the processing

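Intervals cover counting error over peaks of 1 list per group, so they do not measure variation between animals. The wild-type share found in Mei4KO was 27.2% with a 1 kb centre window, 17.6% with the widest 1715 Mei4KO peaks, 21.6% with the wider 50% of each list and 28.9% with the first 1715 in deposited order. The Mei4KO share found in the wild type was 8.85, 17.4, 7.02 and 28.7% under the same alternatives. The knockout-only minus shared difference at hotspots was -1.22 points with the centre window and -0.94 in deposited order, and at CTCF -3.04 with the wider 50% and -1.35 in deposited order, none called. Mei4KO minus Prdm9KO turned to -1.69, -0.58 and -1.84 points with the widest, the wider 50% and the first peaks, the Prdm9KO list being kept whole. It was 2.25 and called with stronger hotspots. The cause of these changes was not tested. Of 127 alternative values, 111 kept direction and call, or for the 2 plain shares stayed within their interval. Some of the 111 could not have changed, so the count overstates how far the results were tested. Among the hotspots of highest DMC1 value that differed, the wild-type share stayed at 93.8% with stronger hotspots, which include all of these. The gap of 1 kb bears on which peaks count as shared. It left that share and the Mei4KO share of the CTCF peaks that differed, 91.1%, as they were. The width comparison was not run with the widest peaks, which were all above the median, and the wider 50% left little room for it. No paired analysis was possible because each group has 1 list, with no values per replicate, and for the same reason no replicate could be left out.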

Other observations

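The chromosome X held fewer of the HORMAD1 peaks of Mei4KO than of the wild type, 62 of 5275 (1.18%, 0.918 to 1.50) against 72 of 1715 (4.20%, 3.35 to 5.25), a difference of -3.02 points (-4.11 to -2.11). Among knockout-only peaks the share was 0.659% (31 of 4701), and among shared Mei4KO peaks 5.40% (31 of 574). For comparison, 2.70% of all CTCF peaks and 3.58% of all hotspots lie on X. The wild-type peaks at CTCF without a hotspot on X were nearly all found in Mei4KO, 28 of 31 (90.3%, 75.1 to 96.7), against 350 of 588 on autosomes (59.5%, 55.5 to 63.4). Of the regions at CTCF that all the other 4 HORMAD1 lists held, 19 of the 210 in Mei4KO and 0 of the 123 not in Mei4KO were on X.

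The ends of the chromosomes differed too. Chromosomes 4, 9 and 13, set apart here, are known to carry mo-2 minisatellite arrays near their ends. In the last 1 Mb of these 3 chromosomes were 60 of 1715 wild-type peaks (3.50%, 2.73 to 4.48) and 32 of 5275 Mei4KO peaks (0.607%, 0.430 to 0.855), a difference of -2.89 points (-3.89 to -2.08). The last 1 Mb of chromosome X held 13 wild-type peaks (0.758%) and 9 Mei4KO peaks (0.171%), a difference of -0.587 points (-1.13 to -0.238). These are included in the counts for X above. In the last 1 Mb of the other autosomes the order was the opposite, with 8 wild-type peaks (0.466%) and 149 Mei4KO peaks (2.82%), a difference of 2.36 points (1.75 to 2.89). Of those 149 peaks, 148 were knockout only, and of all 4701 knockout-only peaks 145 were there without a hotspot. The end of a chromosome was taken as the last position in any list or in the gene table.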
